A study of Mus musculus with 10 samples.

Results

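Kinesins, the motor proteins that walk along microtubules or take them apart, were followed in the embryonic mouse lumbar spinal cord after conditional deletion of *Dot1l*, which encodes the methyltransferase of histone H3 lysine 79. Members were protein-coding genes of the count table whose symbol begins with Kif and a digit, 38 of the 54146 genes in the table. Not every gene with such a symbol is reported here. They were split by known function into 11 mitotic kinesins (*Kif2c*, *Kif4*, *Kif11*, *Kif14*, *Kif15*, *Kif18a*, *Kif18b*, *Kif20a*, *Kif20b*, *Kif22*, *Kif23*), 9 neuronal transport kinesins (*Kif1a*, *Kif1b*, *Kif3a*, *Kif3c*, *Kif5a*, *Kif5b*, *Kif5c*, *Kif21a*, *Kif21b*) and 18 others. The last set took in *Kif1bp*, which by its name binds a kinesin and is not one.

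RNA-seq was performed on polyA RNA of single embryos at E12.5, 5 controls and 5 *Dot1l*-cKO embryos from 2 litters, with the dorsal root ganglia left on the cord. The line, named B6.Cg-E2f1Tg(Wnt1-cre)2Sor/J, was the same for all embryos, and each carried at least 1 floxed *Dot1l* allele. The *Dot1l*-cKO embryos were Wnt1cre2/+; Dot1lfl/fl in both litters, whereas the controls, none with the transgene, were +/+; Dot1lfl/fl in litter 1 and +/+; Dot1lfl/+ in litter 2. Litter 1 held controls 1 to 3 and cKO 1 to 3, and litter 2 held controls 4 and 5 and cKO 4 and 5. Wnt1 drives cre mainly in the dorsal neural tube and the neural crest, so each *Dot1l*-cKO library mixed cells that had met the recombinase with cells that had not, and in such bulk tissue fewer cells of a type cannot be told apart from less RNA per cell.

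The libraries held 40949585 to 68928443 counted reads, and 19773 genes passed the filter on low counts and were tested. *Dot1l* counts did not fall in the *Dot1l*-cKO embryos (log2 fold change 0.17, adjusted p = 0.13, edgeR quasi-likelihood test); counts over the whole gene do not resolve the floxed part, so this does not check the deletion. *E2f1*, the gene that the line name gives as the place of the transgene, was lower in the *Dot1l*-cKO embryos (-0.32, adjusted p = 0.04997). All *Dot1l*-cKO embryos and no control carried the transgene, so that its effect and that of the loss of *Dot1l* cannot be told apart in any gene. The 3 Hox10 genes of lumbar level summed to 364 to 513 CPM. A list of 8 neuronal genes, which takes in *Kif1a* and *Kif5a*, summed to 5449 to 6300 CPM. All 4 skeletal muscle genes, the sign of tissue beyond the cord, were detected. Their sum ran from 2.99 to 58.6 CPM in the controls and from 3.92 to 35.5 CPM in the *Dot1l*-cKO embryos. In litter 2 the sums were 48.7 and 58.6 CPM in the controls and 14.8 and 17.2 CPM in the *Dot1l*-cKO embryos. All 4 estimates were below 0 in each litter, and none of the 4 genes passed. Both *Dot1l*-cKO embryos of litter 2 had *Xist* at 6.00 and 6.79 CPM and 4 Y-linked genes at 156 and 172 CPM, whereas the other 8 embryos had *Xist* at 499 CPM or more, so that sex and genotype cannot be told apart in litter 2.

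Kinesins share a motor domain that hydrolyses ATP. In dividing cells a specialised set builds the bipolar spindle, moves chromosomes and organises the central spindle and midbody for cytokinesis, and the genes of this set are transcribed mainly in G2 and M phase. In neurons another set carries vesicle precursors, mitochondria and cytoskeletal proteins outward along axons and dendrites. The E12.5 spinal cord holds both kinds of cell, with dividing progenitors around the central canal and postmitotic neurons in the mantle.

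The bases before the transcription start were inspected first, since cell cycle genes commonly carry a CHR element, with the letters TTTGAA or TTCGAA, and CCAAT boxes there. RefSeq windows of GRCm38.p6, 250 bases before the first listed start, were at hand for 30 of the 38 members. Of these 5 are shown, 5′ to 3′, for *Kif11*, *Kif23* and *Kif18b* of the mitotic class, for *Kif5c*, the transport kinesin with the highest level, and for *Kif26a*, which was higher in the *Dot1l*-cKO embryos. Capitals mark CHR letters and CCAAT on either strand (ATTGG and TTCAAA are the reverse strand readings). None of the 5 windows overlapped its gene in the GENCODE annotation.
*Kif11*, chr19:37376132-37376381, + strand: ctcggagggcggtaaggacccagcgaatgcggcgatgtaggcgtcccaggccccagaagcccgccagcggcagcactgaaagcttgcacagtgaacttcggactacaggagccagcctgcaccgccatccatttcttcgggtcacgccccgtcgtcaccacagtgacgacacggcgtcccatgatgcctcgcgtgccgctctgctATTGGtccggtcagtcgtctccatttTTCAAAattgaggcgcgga
*Kif23*, chr9:61946800-61947049, - strand: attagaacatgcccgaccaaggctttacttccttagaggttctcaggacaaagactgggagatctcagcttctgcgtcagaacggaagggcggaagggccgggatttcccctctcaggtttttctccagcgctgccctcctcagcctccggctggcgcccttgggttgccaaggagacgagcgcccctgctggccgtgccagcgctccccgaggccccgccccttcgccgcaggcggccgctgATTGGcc
*Kif18b*, chr11:102925125-102925374, - strand: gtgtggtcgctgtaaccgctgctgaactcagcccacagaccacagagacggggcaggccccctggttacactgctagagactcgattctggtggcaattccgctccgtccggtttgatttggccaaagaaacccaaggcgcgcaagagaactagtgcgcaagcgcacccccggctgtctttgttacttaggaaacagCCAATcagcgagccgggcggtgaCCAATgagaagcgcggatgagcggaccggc
*Kif5c*, chr2:49619036-49619285, + strand: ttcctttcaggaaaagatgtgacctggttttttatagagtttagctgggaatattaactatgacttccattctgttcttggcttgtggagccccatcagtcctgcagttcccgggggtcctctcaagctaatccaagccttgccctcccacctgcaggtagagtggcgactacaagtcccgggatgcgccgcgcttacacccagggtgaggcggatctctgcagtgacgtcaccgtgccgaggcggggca
*Kif26a*, chr12:112145958-112146207, + strand: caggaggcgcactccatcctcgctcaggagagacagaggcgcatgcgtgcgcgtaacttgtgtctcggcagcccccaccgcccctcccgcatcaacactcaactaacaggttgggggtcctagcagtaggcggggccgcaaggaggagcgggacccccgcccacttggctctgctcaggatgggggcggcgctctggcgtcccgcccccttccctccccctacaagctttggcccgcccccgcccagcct

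CHR letters stood in the windows of 5 of 10 mitotic kinesins (*Kif2c*, *Kif11*, *Kif14*, *Kif15*, *Kif22*) and of 0 of 6 transport kinesins, against 17.4% of the windows of all 27025 genes. CCAAT stood in 6 of 10 mitotic and 2 of 6 transport windows, against 34.5% of all. In *Kif11* the CHR letters ended 14 bases and the CCAAT box 41 bases before the start, and *Kif22* held the same pair 12 and 50 bases before it. The 4 spellings TTTCCCGC, TTTGGCGC, TTTCGCGC and TTTGCCGC, the E2F type, were found in *Kif15* and *Kif18a* only among the members, and in 1.91% of all windows. No match overlapped another. The windows of *Kif2c*, *Kif4* and *Kif14* lay inside the GENCODE gene, behind a more upstream start, as did the last 51 bases of that of *Kif22* and the last 35 of that of *Kif15*, which held the CHR letters nearest the start in both and the end of the CCAAT box in *Kif22*. A match describes letters only, and the window of *Kif26a* held none of them.

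The transport kinesins were far more abundant than the mitotic ones in every embryo. Levels between genes are given as TPM, counts per kilobase of exon scaled to the same total in each embryo. Mean TPM over the 10 embryos ran from 110 for *Kif3c* to 606 for *Kif5c* in the transport class, and from 6.80 for *Kif14* to 47.5 for *Kif11* in the mitotic class, so that the ranges did not meet. *Kif5c*, *Kif5a* and *Kif5b* encode the heavy chains of conventional kinesin and stood at 606, 267 and 132 TPM. *Kif1a*, which carries synaptic vesicle precursors, had 297 TPM. Among mitotic genes *Kif20a* and *Kif22* followed *Kif11* at 38.7 and 37.1 TPM. Counts of single members ran from 472 to 6580 reads per embryo in the mitotic class and from 5940 to 78677 in the transport class.

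**Figure D1:**
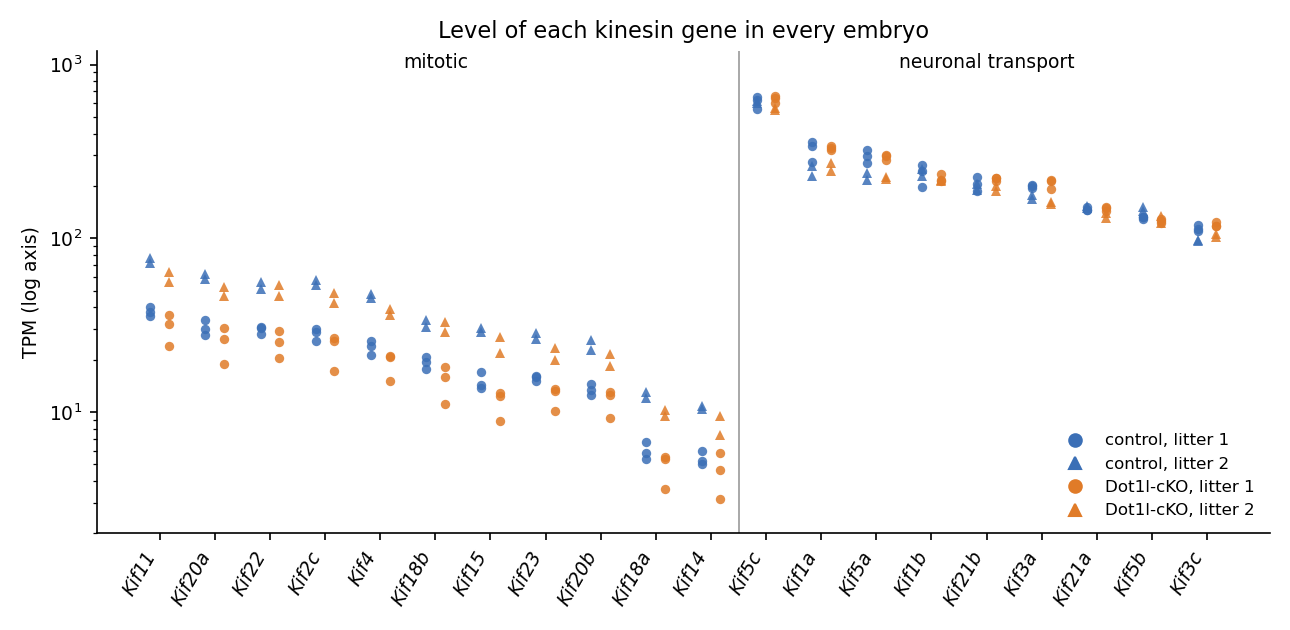
TPM of the 11 mitotic and 9 neuronal transport kinesins on a log axis, 1 point per embryo (blue, control; orange, *Dot1l*-cKO; circles, litter 1; triangles, litter 2). Every transport kinesin lies above every mitotic one, and for each mitotic gene the triangles lie above all circles.

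The first comparison asked which kinesins differ between genotypes once the litter is in the model. Of the members 3 passed the threshold of adjusted p below 0.05 (edgeR quasi-likelihood test, adjusted over all 19773 genes). *Kif23* and *Kif24* were lower and *Kif26a* was higher in the *Dot1l*-cKO embryos. Over all genes tested, 1.09% were lower and 1.9% higher by the same rule (215 and 376 genes, or 192 and 220 after a GC correction). Single genes are given in CPM, which is counts scaled to library size with TMM factors.

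*Kif23* (MKLP1) forms the centralspindlin complex with *Racgap1* and is needed for cytokinesis. It stood at 28.2, 30.2 and 29.9 CPM in the controls of litter 1 and at 19.3, 25.5 and 24.9 CPM in their *Dot1l*-cKO littermates. In litter 2 it stood at 54.8 and 51.9 CPM in the controls and at 44.9 and 39.8 CPM in the *Dot1l*-cKO embryos. The genotypes did not overlap within either litter, although litter 2 lay above litter 1 throughout. The log2 fold change was -0.34 (SE 0.073, adjusted p = 0.0318), with -0.33 in each litter alone. It passed in 3 of the 10 fits with 1 embryo left out, so the call rests on the full set.

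*Kif11* (Eg5), which slides antiparallel microtubules to push the spindle poles apart, stood at 62.9, 67.9 and 70.9 CPM in the litter 1 controls and at 43.3, 64.5 and 56.8 CPM in the *Dot1l*-cKO embryos. In litter 2 the controls had 131 and 143 CPM and the *Dot1l*-cKO embryos 116 and 106 CPM. Only cKO 2 overlapped the controls of its litter. The log2 fold change of -0.30 (SE 0.083) did not pass (adjusted p = 0.0667), and its 95% interval ran from -0.47 to -0.12.

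*Kif20a* (MKLP2), which brings the chromosomal passenger complex to the central spindle, had 30.9, 29.1 and 34.6 CPM in controls 1 to 3 and 19.8, 31.6 and 27.3 CPM in cKO 1 to 3. The litter 2 values were 61.5 and 67.8 CPM against 55.5 and 51.0 CPM. The groups overlapped in litter 1 through cKO 2. Its log2 fold change was -0.27 (SE 0.098, adjusted p = 0.13).

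*Kif15*, a second motor that holds spindle poles apart, measured 35.7, 38.2 and 44.3 CPM in controls 1 to 3 and 23.7, 34.0 and 32.5 CPM in cKO 1 to 3. In litter 2 it had 81.0 and 79.7 CPM against 72.4 and 61.3 CPM. No overlap occurred within a litter, and the log2 fold change was -0.34 (SE 0.092, adjusted p = 0.0588). *Kif22* (Kid), a chromokinesin that pushes chromosome arms towards the metaphase plate, measured 32.4, 35.9 and 35.5 CPM in controls 1 to 3 and 24.1, 34.3 and 29.6 CPM in cKO 1 to 3. In litter 2 its values of 60.6 and 68.3 CPM in controls and 64.5 and 58.1 CPM in *Dot1l*-cKO embryos overlapped. It had the smallest difference of the class (-0.17, SE 0.083, adjusted p = 0.249).

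The other 7 mitotic kinesins besides *Kif23*, *Kif11*, *Kif15* and *Kif20a* had log2 fold changes between -0.31 (*Kif18a*) and -0.17 (*Kif22*), and none passed.

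Those remaining members act at different points of division. *Kif2c* (MCAK) takes microtubules apart at kinetochores to correct wrong attachments, and it had 26.4 to 30.7 CPM in the controls and 18.2 to 27.7 CPM in the *Dot1l*-cKO embryos of litter 1, then 56.9 to 62.6 and 46.9 to 51.8 CPM in litter 2 (log2 fold change -0.27, adjusted p = 0.127). *Kif18a*, which dampens chromosome movements at the plus ends of kinetochore microtubules, had 12.5 to 15.5 CPM in the controls and 8.57 to 12.8 CPM in the *Dot1l*-cKO embryos of litter 1, then 28.8 to 32.2 and 23.6 to 24.8 CPM in litter 2 (log2 fold change -0.31, adjusted p = 0.103). Both overlapped between genotypes in litter 1 through cKO 2 and cKO 3 and separated in litter 2.

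*Kif18b* acts on astral microtubules, and had 15.0 to 17.4 CPM in the controls and 9.54 to 15.4 CPM in the *Dot1l*-cKO embryos of litter 1, then 27.7 to 29.4 and 26.2 to 28.7 CPM in litter 2 (log2 fold change -0.23, adjusted p = 0.24). The midbody motors *Kif14*, a partner of citron kinase, and *Kif20b*, needed for abscission, had log2 fold changes of -0.28 (adjusted p = 0.218) and -0.24 (adjusted p = 0.135). *Kif4* measured 27.8 to 33.0 CPM in the controls and 20.2 to 27.7 CPM in the *Dot1l*-cKO embryos of litter 1, then 61.0 to 66.1 and 50.3 to 53.1 CPM in litter 2 (log2 fold change -0.30, adjusted p = 0.0563).

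All 11 estimates were below 0, with a median of -0.28 beside -0.01 over all genes tested, and 10287 of the 19773 genes had an estimate below 0. The median was -0.29 in litter 1 and -0.27 in litter 2, and 11 of 11 estimates were below 0 in each. Without adjustment 9 of 11 had p below 0.05, as had 2098 genes with lower counts in the whole table. By DESeq2 with the litter term, 5 mitotic kinesins were lower (*Kif4*, *Kif11*, *Kif15*, *Kif18a*, *Kif23*), where 3.86% of genes with an adjusted p were lower and 5.12% higher. *Kif4*, *Kif15* and *Kif23* were lower without overlap in both litters, 3 of 11, where 4.15% of all genes tested were lower and 3.8% higher in that way. *Kif4*, a chromokinesin of the spindle midzone, is X-linked, and its log2 fold change was -0.30 in litter 1 and -0.29 in litter 2. *Xist* stood at 755, 569 and 890 CPM in controls 1 to 3 and at 499, 596 and 589 CPM in cKO 1 to 3, and its part in the *Kif4* values was not tested.

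**Figure D2:**
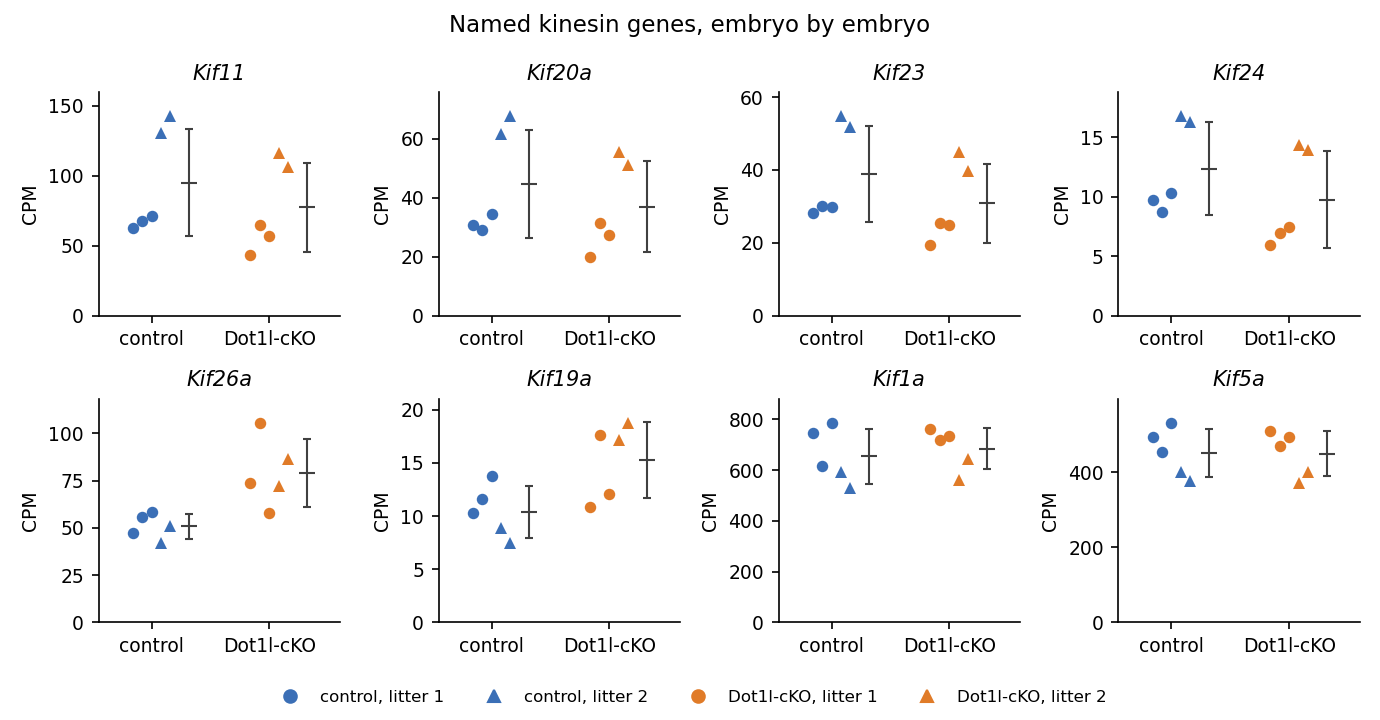
CPM of 8 kinesin genes in each embryo, with the mean and SD of the 5 embryos of a genotype at the side (circles, litter 1; triangles, litter 2; axes start at 0). *Kif11*, *Kif20a*, *Kif23* and *Kif24* separate by litter, *Kif23* and *Kif24* also by genotype within each litter, *Kif26a* is above every control in 4 of the 5 *Dot1l*-cKO embryos, and *Kif1a* and *Kif5a* overlap.

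The size of the difference varied between the *Dot1l*-cKO embryos. Relative to the mean of the controls of the same litter, the median log2 ratio over the 11 mitotic kinesins was -0.67 in cKO 1, -0.07 in cKO 2, -0.21 in cKO 3, -0.21 in cKO 4 and -0.36 in cKO 5. Embryo cKO 1 had the lowest value of all 10 embryos for 11 of 11 mitotic kinesins. Without it the median fold change was -0.18, and no kinesin gene passed. Embryo cKO 2 lay below all controls of its litter for 3 of 11 genes only, and without it the median was -0.35.

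**Figure D3:**
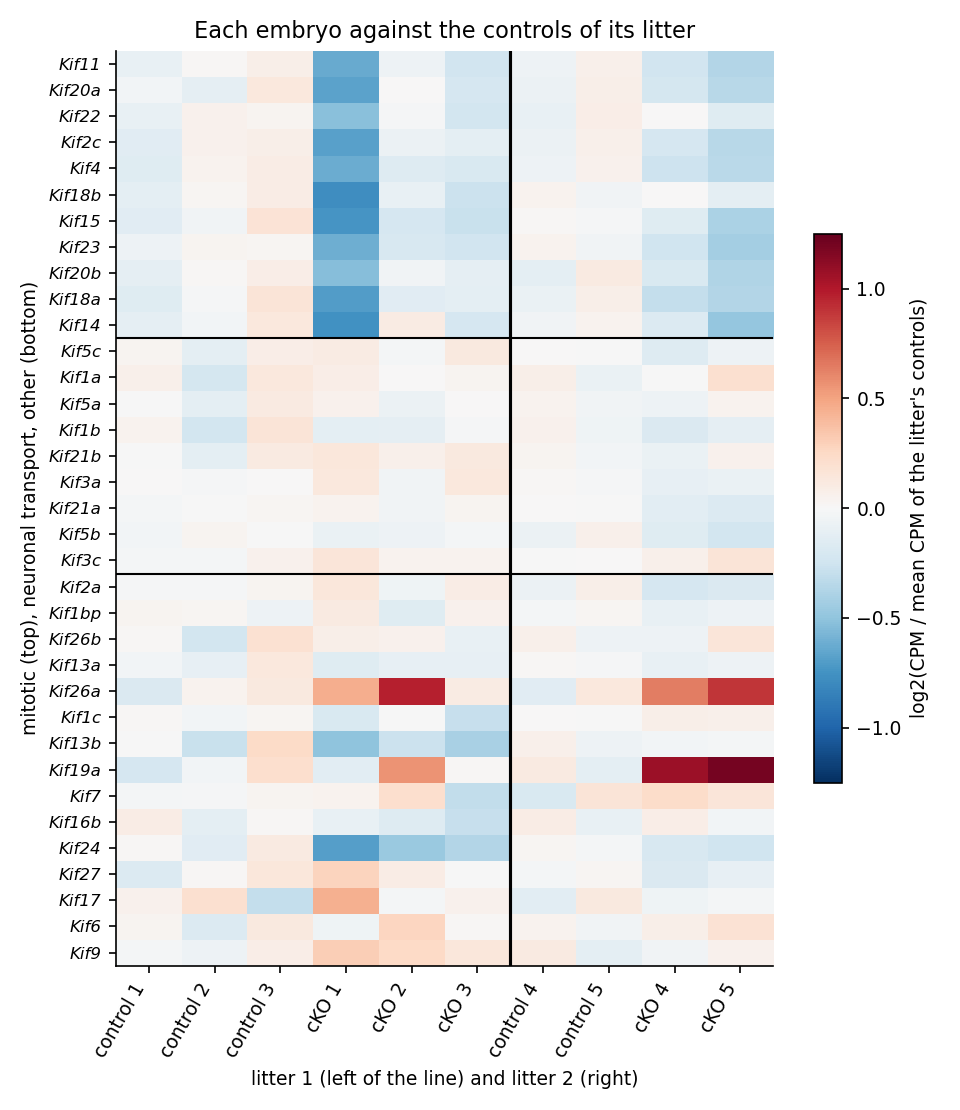
Log2 ratio of each embryo's CPM to the mean of its litter's controls for the 35 kinesin genes tested (blue, lower; red, higher). The mitotic block is mostly blue in the *Dot1l*-cKO columns, apart from *Kif14* (0.11) and *Kif20a* (0.00) in cKO 2 and *Kif22* (0.00) and *Kif18b* (0.01) in cKO 4, and most deeply in cKO 1 with a median of -0.67, and the transport block stays pale.

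Markers of dividing cells are given beside these genes. The list of 5 (*Kif11* and *Kif20a* themselves, *Mki67*, *Top2a* and *Ccnb1*) summed to 542 to 632 CPM in the controls of litter 1 and 331 to 514 CPM in the *Dot1l*-cKO embryos, while in litter 2 the controls had 1222 and 1226 CPM and the *Dot1l*-cKO embryos 922 and 1021 CPM. Of the 5, *Mki67* passed (-0.49, adjusted p = 0.0376, edgeR), and *Top2a* (-0.37, adjusted p = 0.0523) and *Ccnb1* (-0.29, adjusted p = 0.0681) did not. By the same rule 1.09% of all genes tested were lower. The 6 progenitor genes from *Sox2* to *Pax6* summed to 1429 to 1958 CPM in the controls and 1279 to 1801 CPM in the *Dot1l*-cKO embryos, and none of the 6 passed. The part of cell makeup in the kinesin values was not tested.

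Genes whose products work with the mitotic kinesins were read from a list of 24. Of these 1, *Cenpf* of the outer kinetochore, was lower (162 ± 72.3 CPM in controls and 123 ± 61.9 CPM in *Dot1l*-cKO embryos, SD, n = 5 each; log2 fold change -0.43, SE 0.102, adjusted p = 0.0421, edgeR). By the same test 1.09% of all genes tested were lower. None of the 24 was higher, and 24 of 24 estimates were below 0 with a median of -0.24. DESeq2 called 12 of 24 lower, where it called 3.86% of all genes with an adjusted p. The values closest to the threshold were those of *Cenpe*, a kinetochore motor (-0.39, adjusted p = 0.0508), and *Ttk*, the spindle checkpoint kinase (-0.33, adjusted p = 0.0511). *Plk1*, the polo kinase, had -0.01 (adjusted p = 0.972), and *Racgap1*, the partner of *Kif23*, -0.08 (adjusted p = 0.434). Of the 24, 9 were lower without overlap in both litters, beside 4.15% of all genes tested.

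No transport kinesin passed the test. Of the 8 neuronal marker genes 1 passed, *Nefl*, the light neurofilament chain (log2 fold change -0.22, adjusted p = 0.0284, edgeR). It was lower in the *Dot1l*-cKO embryos, as were 1.09% of all genes tested. Of the 8 estimates 5 were above 0, with a median of 0.05, and the part of *Nefl* in the transport kinesin values was not tested. *Kif1a* stood at 746, 616 and 786 CPM in controls 1 to 3 and at 761, 719 and 735 CPM in cKO 1 to 3. In litter 2 it stood at 591 and 530 CPM in the controls and at 560 and 644 CPM in the *Dot1l*-cKO embryos. The genotypes overlapped in both litters, and the log2 fold change was 0.07 (95% interval -0.07 to 0.21, adjusted p = 0.589).

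*Kif5a*, the neuron-specific heavy chain of conventional kinesin, measured 493, 455 and 532 CPM in controls 1 to 3 and 511, 470 and 495 CPM in cKO 1 to 3, while controls 4 and 5 had 401 and 378 CPM and cKO 4 and 5 had 373 and 401 CPM. Controls and *Dot1l*-cKO embryos overlapped throughout. Its log2 fold change was -0.01 with a 95% interval from -0.11 to 0.10. *Kif5c*, also enriched in neurons, had an interval from -0.12 to 0.11 around 0.00 (adjusted p = 0.972). In litter 1 it had 950 to 1097 CPM in the controls and 1018 to 1122 CPM in the *Dot1l*-cKO embryos (log2 fold change 0.07). In litter 2 the controls had 1071 and 1067 CPM and the *Dot1l*-cKO embryos 955 and 1024.5 CPM, without overlap (log2 fold change -0.10).

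The largest differences of the class were found in *Kif5b*, the ubiquitous heavy chain, and *Kif1b*, a carrier of mitochondria and vesicle precursors. *Kif5b* had 243 to 256 CPM in the controls and 235 to 245 CPM in the *Dot1l*-cKO embryos of litter 1, while in litter 2 the controls had 276 and 303 CPM and the *Dot1l*-cKO embryos 261 and 247 CPM. Only litter 2 separated the genotypes, and the log2 fold change of -0.11 (95% interval -0.21 to -0.01) did not pass (adjusted p = 0.173). *Kif1b* had 838 to 1097 CPM in controls and 903 to 975 CPM in *Dot1l*-cKO embryos, with overlap in litter 1 and none in litter 2 (-0.11, 95% interval -0.25 to 0.03). The remaining members were *Kif3a* and *Kif3c* of the heterotrimeric kinesin-2 family and *Kif21a* and *Kif21b*, which also restrain microtubule growth. They lay between -0.05 (*Kif21a*) and 0.09 (*Kif3c*).

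*Kif3a*, also needed to build cilia, had 168 to 170 CPM in the controls and 164 to 186 CPM in the *Dot1l*-cKO embryos of litter 1, then 150 to 154 and 141 to 144 CPM in litter 2 (log2 fold change 0.01, adjusted p = 0.946). *Kif3c* had 197 to 207 CPM in the controls and 206 to 223 CPM in the *Dot1l*-cKO embryos of litter 1, then 176 to 178 and 185 to 198 CPM in litter 2 (log2 fold change 0.09, adjusted p = 0.204). In litter 2 both *Dot1l*-cKO embryos exceeded both controls for *Kif3c*, whereas for *Kif3a* both lay below them. *Kif21a* had 224 to 231 CPM in the controls and 221 to 234 CPM in the *Dot1l*-cKO embryos of litter 1, then 242 to 243 and 215 to 221 CPM in litter 2 (log2 fold change -0.05, adjusted p = 0.499). *Kif21b* had 549 to 644 CPM in the controls and 621 to 655 CPM in the *Dot1l*-cKO embryos of litter 1, then 580 to 605 and 560 to 614 CPM in litter 2 (log2 fold change 0.06, adjusted p = 0.555). Among these 4 genes the estimates in litter 1 were above 0, and those of *Kif3a*, *Kif21a* and *Kif21b* in litter 2 were below 0, with no interaction past the threshold.

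The class had 5 estimates below 0 and 4 above, with a median of 0.00. In litter 1 alone 2 of 9 were below 0 (median 0.05), and in litter 2 alone 7 of 9 (median -0.09). The 95% intervals of its 9 members together spanned -0.25 to 0.21, whereas those of the mitotic members reached from -0.54 to 0.01. Without adjustment, p was below 0.05 for *Kif5b* (lower) and *Kif3c* (higher), 2 of 9, as it was for 2098 lower and 2192 higher genes of all 19773. DESeq2 also called 0 of 9.

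Cargo adaptors of the transport kinesins gave 1 call in 17 by edgeR, which called 1.9% of all genes higher, and 2 by DESeq2, both higher, which called 5.12%. *Klc2*, a light chain of conventional kinesin, was higher in the *Dot1l*-cKO embryos (123 ± 10.0 against 143 ± 14.2 CPM, SD, n = 5 each; log2 fold change 0.22, SE 0.055, adjusted p = 0.0481, edgeR). *Klc1*, the other neuronal light chain, had 0.07 (adjusted p = 0.347), and the median of the list was 0.07. The minus end directed motor dynein and its dynactin partners gave 0 of 13 calls by edgeR, with 2 of 13 at an unadjusted p below 0.05, both lower, as had 2098 of all 19773 genes, and 1 call by DESeq2, lower, where 3.86% of genes were. The smallest p-values were those of *Nde1*, a dynein regulator that also acts in mitosis (-0.23, adjusted p = 0.0835), and *Dync1h1*, the dynein heavy chain (-0.29, adjusted p = 0.137). Of 14 neuronal microtubule proteins *Stmn3*, a stathmin that destabilises microtubules, was higher (264 ± 37.4 against 345 ± 40.3 CPM, SD, n = 5 each, log2 fold change 0.39, SE 0.079, adjusted p = 0.0287, edgeR), and the median of the list was 0.03. That was the only call by edgeR in this list, beside 1.9% of all genes called higher. DESeq2 called 2 of the 14, both higher, where it called 5.12%.

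Among the 18 other members *Kif26a* was higher and *Kif24* lower in the *Dot1l*-cKO embryos. *Kif26a* encodes an atypical kinesin that binds microtubules without motility and is known for its role in enteric neuron development. It had 47.4, 55.6 and 58.6 CPM in the controls and 73.6, 106 and 57.8 CPM in the *Dot1l*-cKO embryos of litter 1. In litter 2 it had 42.0 and 50.9 CPM in the controls and 72.2 and 86.4 CPM in the *Dot1l*-cKO embryos. Only cKO 3 lay within the control range. The log2 fold change was 0.64 (SE 0.131, adjusted p = 0.0305, edgeR), a 1.56-fold difference, and it passed in 5 of 10 fits with 1 embryo left out. With GC correction it was 0.40 (adjusted p = 0.0197), and in the robust edgeR test, which called 2 kinesin genes, *Kif26a* did not pass (adjusted p = 0.0816).

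Markers of the dorsal root ganglion, which stayed on the cord, are given beside *Kif26a*. The 5 sensory neuron genes of the dorsal root ganglion summed to 782 to 834 CPM in the controls and 606 to 763 CPM in the *Dot1l*-cKO embryos of litter 1. In litter 2 the sums were 381 and 382 CPM in the controls and 440 and 499 CPM in the *Dot1l*-cKO embryos. The sum was thus lower in the *Dot1l*-cKO embryos of litter 1 and higher in those of litter 2, without overlap in either, with median log2 fold changes of -0.18 and 0.50. Over both litters 0 of 5 genes passed (edgeR, 1 of 5 with an unadjusted p below 0.05, higher), and 4 of 5 had an unadjusted p below 0.05 for the interaction, beside 8.19% of all genes tested, none after adjustment. Their part in the *Kif26a* result was not tested.

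*Kif24*, a motor of the centriole that removes microtubules and restrains cilium formation, measured 9.69, 8.67 and 10.3 CPM in controls 1 to 3 and 5.94, 6.94 and 7.45 CPM in cKO 1 to 3. In litter 2 it had 16.8 and 16.3 CPM against 14.4 and 13.9 CPM. The genotypes did not overlap within a litter, and the log2 fold change was -0.39 (SE 0.087, adjusted p = 0.0363). It passed in 2 of 10 fits with 1 embryo left out, and in neither litter alone (adjusted p = 0.135 and 0.246). *Kif24* thereby shared with the mitotic class both the lower values in the *Dot1l*-cKO embryos and the higher values in litter 2 (0.93, adjusted p = 3.9e-06).

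*Kif19a*, a microtubule depolymerising kinesin of motile cilia, is also a member. It was not among the genes set to be given in full and was chosen after its values were seen. Its values in litter 2 were 8.88 and 7.51 CPM in the controls and 17.2 and 18.8 CPM in the *Dot1l*-cKO embryos. In litter 1 they overlapped, with 10.3 to 13.8 CPM in the controls and 10.9 to 17.6 CPM in the *Dot1l*-cKO embryos. The log2 fold change was 0.19 in litter 1 and 1.13 in litter 2, with 0.55 in both together (adjusted p = 0.0962). The difference between the litters had an unadjusted p of 0.0028 and an adjusted p of 0.375 in the interaction fit.

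The 3 most abundant other members did not pass. *Kif2a*, a microtubule depolymerase that prunes axon branches, had 147 to 171 CPM in controls and 141 to 164 CPM in *Dot1l*-cKO embryos (-0.04, adjusted p = 0.733). *Kif1bp* had 72.6 to 78.1 and 68.8 to 82.2 CPM (-0.03, adjusted p = 0.813), and *Kif26b*, a relative of *Kif26a*, had 162 to 249 and 163 to 229 CPM (0.02, adjusted p = 0.874). *Kif7*, the ciliary regulator of Gli factors in Hedgehog signalling, was expressed at 11.5 to 15.4 and 9.46 to 16.1 CPM (0.08, adjusted p = 0.698). These 4 genes overlapped between the genotypes over the 10 embryos, although *Kif2a* and *Kif1bp* were lower without overlap within litter 2. The remaining members tested were *Kif13a*, *Kif13b*, *Kif1c*, *Kif16b*, *Kif6*, *Kif9*, *Kif17* and *Kif27*, whose log2 fold changes lay between -0.25 (*Kif13b*) and 0.15 (*Kif9*). *Kif13b*, a carrier of membrane vesicles along polarised microtubules that was also chosen after its values were seen, had 66.8 to 96.2 CPM in the controls and 57.4 to 67.7 CPM in the *Dot1l*-cKO embryos of litter 1, then 61.2 to 66.9 and 62.4 to 62.9 CPM in litter 2 (log2 fold change -0.25, adjusted p = 0.143), and the genotypes overlapped in both litters. *Kif2b*, *Kif12* and *Kif28* did not pass the filter, and *Kif2b* had 0 reads in every embryo.

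The litters differed more than the genotypes did. All 11 mitotic kinesins were higher in litter 2 than in litter 1, with log2 differences from 0.86 (*Kif23*) to 1.11 (*Kif18a*), and their adjusted p-values lay between 1.2e-06 and 3.8e-05 (edgeR, genotype in the model). Of all genes tested, 16.9% were higher and 17.8% lower in litter 2. All 4 embryos of litter 2 exceeded all 6 of litter 1 for 11 of 11 mitotic kinesins, where 11.9% of genes did so and 11.6% lay wholly below. For *Kif11* litter 2 was 2.03-fold higher (log2 1.02, SE 0.084), and *Kif20a* had 1.03 (SE 0.098).

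The transport kinesins divided. *Kif5a* (-0.34, SE 0.052, adjusted p = 0.00017), *Kif1a* (-0.32, adjusted p = 0.0021), *Kif3a* (-0.24, adjusted p = 0.0019) and *Kif3c* (-0.16, adjusted p = 0.0078) were lower in litter 2. *Kif5b* was higher (0.15, adjusted p = 0.0185), and the other 4 did not pass. The median of the class was -0.07 against 1.02 for the mitotic class and -0.02 over all genes. In the remaining set *Kif24*, *Kif7* (0.33, adjusted p = 0.0197) and *Kif13a* (0.16) were higher, and *Kif26b* (-0.34, adjusted p = 0.0025), *Kif17* (-0.45) and *Kif9* (-0.42) were lower in litter 2.

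The same order was seen within each genotype. Among the controls alone the median litter difference of the mitotic kinesins was 1.03, and among the *Dot1l*-cKO embryos alone it was 1.03. The number of floxed alleles changes with the litter in the controls only, and the sex markers change with it in the *Dot1l*-cKO embryos only. All 24 spindle and cytokinesis genes were higher in litter 2 as well (median 0.99). Markers of dividing cells summed to 331 to 632 CPM in litter 1 and 922 to 1226 CPM in litter 2, those of progenitors to 1279 to 1470 and 1776 to 1958 CPM, and those of dorsal root ganglion neurons to 606 to 834 and 381 to 499 CPM. What else separates the litters was not tested.

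**Figure D4:**
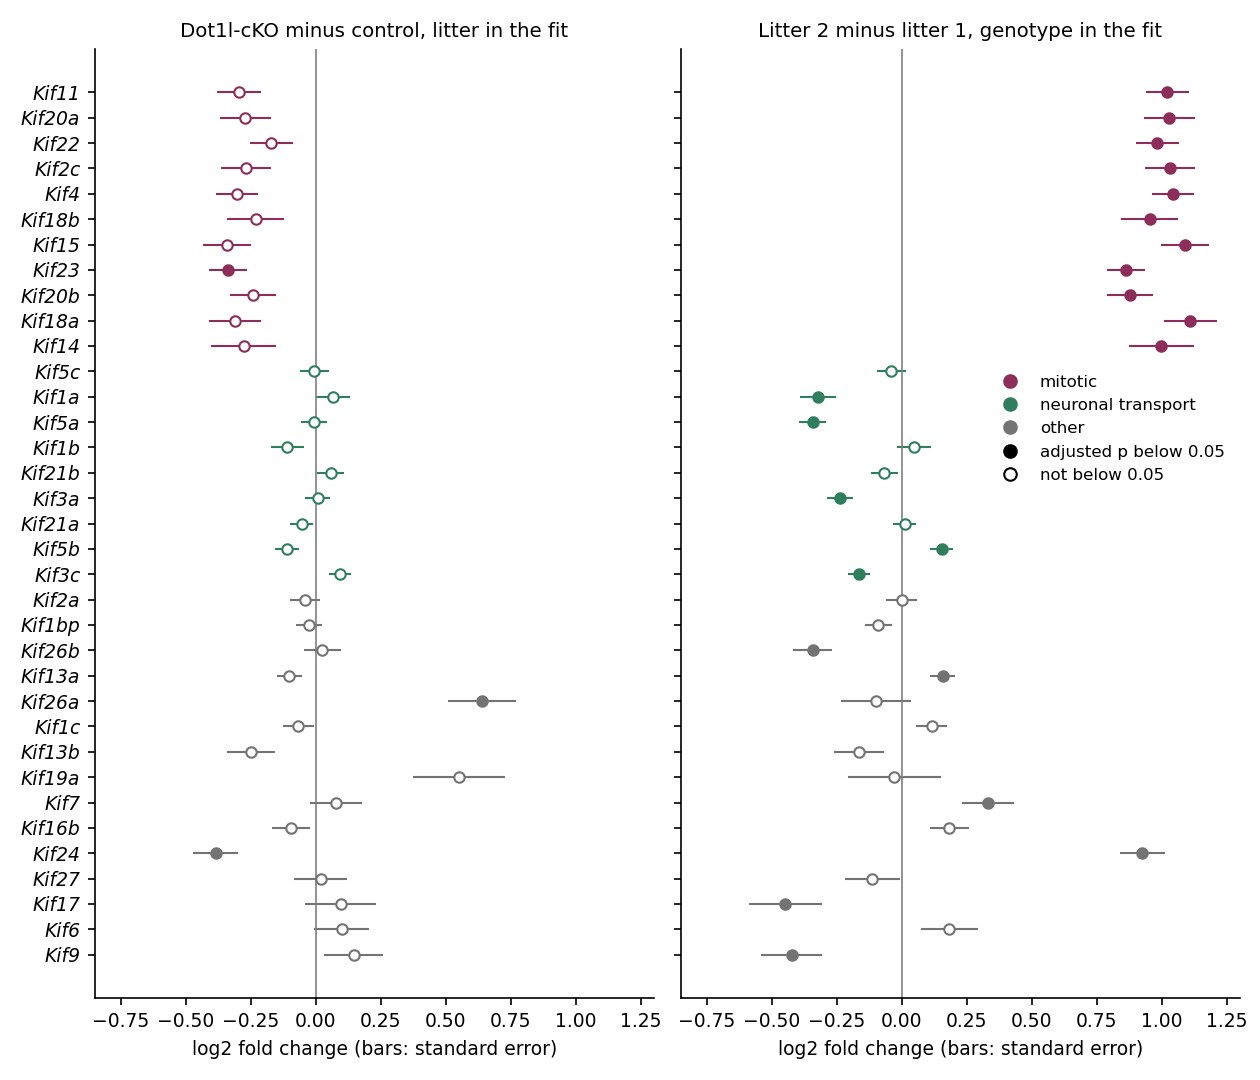
Log2 fold changes with standard errors for the 35 kinesin genes tested, between genotypes (left) and between litters (right); filled points have an adjusted p below 0.05. Mitotic genes lie between -0.34 and -0.17 on the left and between 0.86 and 1.11 on the right, and transport genes lie near 0 on the left.

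Summed over the class, mitotic kinesin TPM was 210, 223 and 242 in controls 1 to 3, 142, 213 and 195 in cKO 1 to 3, 419 and 436 in controls 4 and 5, and 382 and 334 in cKO 4 and 5. Litter 2 lay above litter 1 in both genotypes, and only cKO 2 reached the control range of its litter. The transport sum was 2062 to 2430 TPM in the controls and 2210 to 2362 TPM in the *Dot1l*-cKO embryos of litter 1, and 2023 to 2141 and 1945 to 1994 TPM in litter 2. The ratio of the mitotic to the transport sum, in percent, came to 9.14 to 10.8% in the controls and 6.09 to 9.62% in the *Dot1l*-cKO embryos of litter 1. In litter 2 it came to 19.6% and 21.6% in the controls and to 19.6% and 16.7% in the *Dot1l*-cKO embryos, where cKO 4 lay just above control 4. These sums are given without a test.

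**Figure D5:**
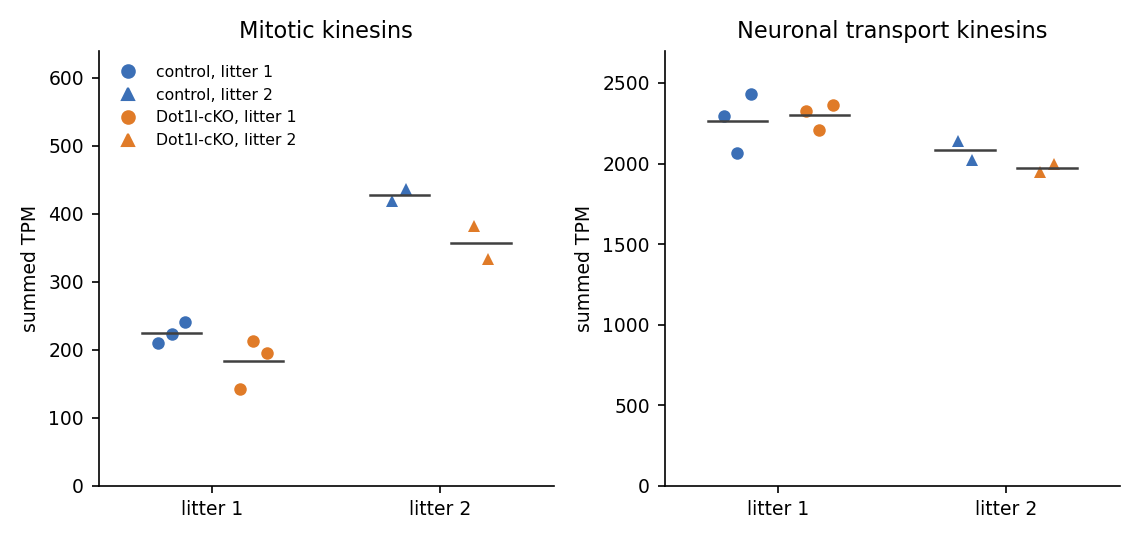
Summed TPM of the 11 mitotic (left) and 9 neuronal transport kinesins (right) per embryo, by litter, with horizontal lines at the means (blue, control; orange, *Dot1l*-cKO; axes start at 0). The mitotic sum runs from 142 to 436 TPM and follows the litter, and the transport sum stays between 1945 and 2430 TPM.

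Whether the genotype difference itself depended on the litter was tested as an interaction. No kinesin gene passed in the edgeR fit, where 0.0101% of all genes tested did. For 2 members the interaction had an unadjusted p below 0.05, *Kif19a* and *Kif2a*, that is 2 of 35, beside 8.19% of all genes tested. For *Kif11*, *Kif20a* and *Kif23* the unadjusted p of the interaction was 0.98, 0.95 and 0.98.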

How the data were processed

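RNA-seq of 10 embryonic lumbar spinal cords was used. Per the labels and the study's methods, the authors trimmed reads with TrimGalore, aligned them to mm10 with STAR and counted them with featureCounts on GENCODE M18 within snakePipes, and the deposited values are raw counts per gene. Whether strand was used in counting is not given in the sources used here.

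Gene names, positions, exon lengths and GC content came from GENCODE M21, which matched 54079 of 54146 identifiers. Genes were tested with the quasi-likelihood test of edgeR 4.0.16 in R 4.3.3, with filterByExpr, TMM scaling and litter and genotype as terms, and p-values were adjusted over 19773 genes by Benjamini and Hochberg (threshold 0.05). CPM used the TMM scaled library sizes, and TPM used exon lengths and all matched genes. The script was tested on simulated data. DESeq2 1.42.0 with the litter term was an alternative, beside other scaling, filtering, robust fitting, GC correction, *Xist* as a covariate, single litters and each embryo left out. Reads were 40949585 to 68928443 per embryo. Intervals at 95% are for the mean difference between genotypes, not for single embryos, and their width comes from the spread between embryos. No pair of the 20 within a genotype agreed within sampling noise.

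The members, lists and named genes were chosen with earlier results of these data known. Values are given in full for *Kif11*, *Kif20a*, *Kif1a* and *Kif5a*, for members past the threshold, for the 3 most abundant and 2 most different members of the mitotic and of the transport class, for the 3 most abundant other members, and for *Kif7*; from each partner list, genes past the threshold or the 2 with the smallest p are named, and further partners were picked after their values were seen. Promoter windows came from RefSeq, and members without one, such as *Kif20a*, were not searched. Some marker genes are not reported here.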

Additional observations from a re-analysis of the deposited data

Results flagged for a closer look

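Among the kinesin genes tested, 3 had a control embryo that stood apart from the other 4 by Dixon's test, which chance alone gives in about 1 of 20 groups. *Kif5c* was at 950 CPM in control 2, with the nearest control at 1056 CPM. *Kif2a* was at 171 CPM in control 5 (nearest 154 CPM), and *Kif7* at 15.4 CPM in control 5 (nearest 12.1 CPM). No cause was tested.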

How the results depend on the processing

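The count of kinesin genes that differed between genotypes depended on the processing. It was 3 with 591 genes in all, 13 of 2201 without the filter on low counts, 7 of 1508 by DESeq2, and 5 of 964 in litter 2 alone. It was 0 of 12 in litter 1 alone (8 kinesin genes with an unadjusted p below 0.05, edgeR, and 2715 of 19275 genes in all), 0 of 49 with *Xist* as a covariate (10 with an unadjusted p below 0.05, and 2757 of 20446 genes in all) and 0 of 0 with no replicate block, that is without the litter term (3 with an unadjusted p below 0.05, and 1867 genes in all). With 1 embryo left out it ranged from 0 to 6 kinesin genes and from 53 to 1377 genes in all; the 3 calls were lost without control 1, 4 or 5 or without cKO 1 or 5, and *Kif26a* alone was called without control 2 or 3. The cause of these shifts was not tested, other than that single litters hold fewer embryos. The mitotic median kept its sign in every setting, from -0.35 (without cKO 2) to -0.18 (without cKO 1). The transport median was 0.0576 with *Xist* as a covariate and -0.0859 in litter 2 alone, and from -0.0333 to 0.0310 with 1 embryo left out. Between litters, 19 to 23 kinesin genes were called with 1 embryo left out; the mitotic median ran from 0.95 to 1.08, and the transport median from -0.10 to -0.03, with -0.0042 in controls alone and -0.128 in *Dot1l*-cKO embryos alone. The interaction called 1 kinesin gene without the filter. Of 304 values of named genes in other settings, 236 kept direction and call, 31 of 3 genes lost and 8 of 3 genes gained the call.

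Among the 16 genes with values in full, signs turned in 7, whose estimates in the main fit lay between -0.04 (*Kif2a*) and 0.08 (*Kif7*). *Kif1a* became -0.0025 with GC correction, and *Kif5a* 0.0023 without the filter, 0.00601 with *Xist* and 0.00097 in litter 1 alone. *Kif5c* became 0.0031 without the filter, 0.0133 with GC correction, 0.0843 with *Xist* and 0.0701 in litter 1 alone. *Kif2a* became 0.0115 with GC correction, 0.0731 with *Xist* and 0.0655 in litter 1 alone, and *Kif1bp* 0.00676 with *Xist* and 0.0123 in litter 1 alone. With GC correction *Kif26b* became -0.0089 and *Kif7* -0.0986, and *Kif7* -0.0164 with *Xist*. With 1 embryo left out *Kif5a* ran from -0.0333 to 0.0251, *Kif5c* from -0.0434 to 0.0310, *Kif2a* from -0.0720 to 0.00869, *Kif1bp* from -0.0555 to 0.0093 and *Kif26b* from -0.0264 to 0.0844.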
